A study of Mus musculus with 17 samples.

Results

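The stretch of mouse chromosome 2 from Cebpb to Ptpn1 was examined for binding of WT1, as mapped by chromatin immunoprecipitation and sequencing (ChIP-seq). Its members were all peaks, that is regions where immunoprecipitated fragments pile up above background, whose summit lay at 167480000 to 167820000 of the mm9 build. This interval of 340 kb held 125 of the 107761 peaks in the 5 peak lists of the series. It was chosen because its window from 167.6 to 167.7 Mb had the most peaks in injured glomeruli and none at day 14 in podocytes. Peak counts of the interval, and the absence at day 14, are therefore descriptions.

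WT1 is a zinc-finger transcription factor that podocytes depend on; these cells wrap glomerular capillaries, where the kidney filters blood. It keeps genes of podocyte structure active, and its loss there causes glomerular disease. Cebpb encodes C/EBPβ, a leucine-zipper transcription factor best known for inflammatory and acute-phase gene expression in macrophages and liver and for fat cell differentiation. Ptpn1 encodes a protein tyrosine phosphatase of the endoplasmic reticulum that removes phosphate from the insulin receptor and from the kinase of the leptin receptor. In the gene order of the RefSeq table of GRCm38.p6, no protein-coding gene and 13 long non-coding RNAs separate Cebpb from Ptpn1. Snai1, Ube2v1 and Tmem189 precede Cebpb, and Ripor3 and Pard6b follow Ptpn1.

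Injured animals received adriamycin (ADR), also called doxorubicin, an anthracycline toxic to podocytes, and the others received phosphate-buffered saline (PBS). Glomeruli isolated from BALB/cJ mice gave 4 ADR and 4 PBS immunoprecipitations. Podocytes purified from mTmG-Nphs2cre mice, in which the promoter of the podocin gene drives a recombinase that marks podocytes, gave 2 ADR immunoprecipitations at day 9, 2 at day 14 and 3 with PBS. All animals are labelled wildtype and 7 to 8 weeks old, no label gives a day for the glomeruli or for PBS podocytes, and 2 further libraries were glomerular inputs, 1 with ADR and 1 with PBS. The libraries of a group are represented by 1 peak list, so no value below has a replicate check and no test between groups was run. Strain and preparation differ together between glomeruli and podocytes and cannot be told apart, nor can fewer podocytes and less binding per podocyte, and the labelled cell type was not checked against marker genes here.

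The promoters of both genes are shown because the interval is named for them and because 2 of its 3 sites with a peak in every list lie near their approximate positions. Those positions are rounded to 10 kb, and 3 sites lie within 5 kb of that of Cebpb and 2 within 5 kb of that of Ptpn1. Which of them lies at the gene is therefore not resolved. The sequences are the 250 bases before the transcription start in RefSeq, both on the plus strand of GRCm38.p6, and capitals mark a motif match.
Cebpb, chr2:167688665-167688914: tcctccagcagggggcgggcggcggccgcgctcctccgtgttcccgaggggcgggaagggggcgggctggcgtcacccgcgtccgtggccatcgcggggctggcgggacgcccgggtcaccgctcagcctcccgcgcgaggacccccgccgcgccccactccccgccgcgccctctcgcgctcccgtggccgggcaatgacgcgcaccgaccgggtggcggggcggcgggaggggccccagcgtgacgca
Ptpn1, chr2:167932077-167932326: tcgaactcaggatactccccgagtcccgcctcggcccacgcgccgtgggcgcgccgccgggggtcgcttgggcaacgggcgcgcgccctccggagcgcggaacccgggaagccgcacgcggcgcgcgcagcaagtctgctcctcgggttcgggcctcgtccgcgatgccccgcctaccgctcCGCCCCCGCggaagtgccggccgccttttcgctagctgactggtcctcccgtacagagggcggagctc
These coordinates belong to GRCm38.p6 and are not comparable with the mm9 positions of the peaks, so whether a peak covers either promoter was not determined. G and C made up 81.6% of the Cebpb promoter and 75.2% of the Ptpn1 promoter, against a median of 52.4% over 32851 promoters of this length, of which 0.746% and 3.91% were as rich or richer. The motifs GNGTGGGNG, GCGGGGGCG and TCCTCCTCC, letters of the kind bound by WT1 and related zinc fingers, were searched on both strands. They occurred in 12.7%, 2.57% and 2.45% of all promoters. The Ptpn1 promoter held 1 match, to GCGGGGGCG on the minus strand, 68 to 60 bases before the start, and the Cebpb promoter had no match to any of the 3.

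WT1 peaks were numerous in the interval in 4 of the 5 groups. It held 33 peaks in ADR glomeruli and 31 in PBS glomeruli, and 40 in day 9 podocytes, 3 in day 14 podocytes and 18 in PBS podocytes. The mean number per 340 kb of genome was 3.18, 5.55, 6.10, 1.28 and 4.47 peaks in that order of groups, over 5238 windows with a peak in any list. As many peaks as in the interval, or more, were found in 1, 12, 2, 954 and 105 of those windows. Few windows thus held as many peaks in both glomerular lists and at day 9, and more did in PBS podocytes. The windows lay on a fixed grid, while the interval was chosen for its peaks, so these counts describe that choice and give no rank.

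The count in ADR glomeruli was 1.06 times that in PBS glomeruli, while the whole ADR list was 0.572 times as long as the PBS list. Among peaks whose −log10 q was 10 or more, however, the interval held 14 ADR peaks and 21 PBS peaks, a ratio of 0.667 beside 0.436 for the lists. At day 9 the interval held 2.22 times as many peaks as in PBS podocytes and the list was 1.37 times as long. At day 14 these ratios to PBS podocytes were 0.167 for the interval and 0.286 for the list. When every list was trimmed to the 6694 peaks with the highest caller significance, the length of the day 14 list, the interval held 12 peaks in ADR glomeruli and 11 in PBS glomeruli, and 12 at day 9, 3 at day 14 and 10 in PBS podocytes. At equal list length 4 of the groups thus differed by at most 2 peaks. Day 14 stood lower, which follows in part from the choice of the interval.

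**Figure D1:**
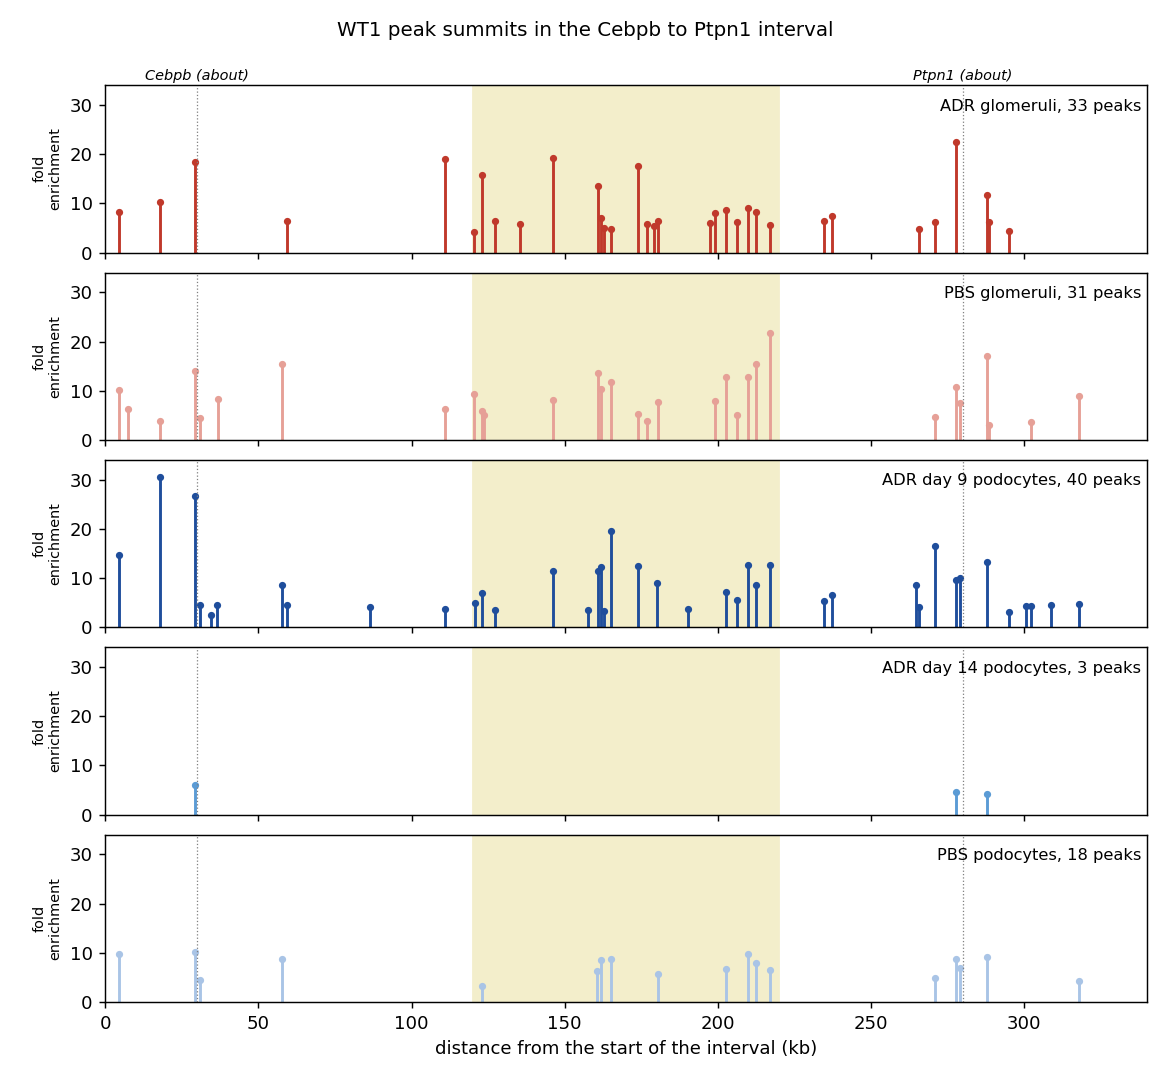
Each line is a WT1 peak summit, placed by its distance in kb from the start of the interval, with its height the fold enrichment the authors' caller gave it. Rows are the 5 groups, the shaded band is the 100 kb window and dotted lines mark the approximate positions of Cebpb and Ptpn1. In 4 groups peaks lie inside the band and on both sides of it, with wide gaps in places. The 3 day 14 peaks stand at 2 places, beside Cebpb and around Ptpn1.

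Within the interval, peaks were unevenly spread. The 100 kb window held 20 peaks in ADR glomeruli and 16 in PBS glomeruli, and 17 at day 9, 0 at day 14 and 9 in PBS podocytes. The stretch to its left, which holds Cebpb, had 5 peaks in ADR glomeruli against 8 in PBS glomeruli, and 10 at day 9, 1 at day 14 and 4 in PBS podocytes. The stretch to its right, which holds Ptpn1, had 8 ADR against 7 PBS glomerular peaks, and 13, 2 and 5 in day 9, day 14 and PBS podocytes.

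Peaks of the interval ran from weak to strong within their lists. The authors' fold enrichment, which ranks peaks within a list and is not compared between lists, had a median of 6.48 in ADR glomeruli and 8.03 in PBS glomeruli, and of 6.72 at day 9, 4.66 at day 14 and 7.44 in PBS podocytes. The medians of the whole lists were 7.26, 7.46, 6.82, 6.27 and 6.30. Above their list's median stood 15 of 33 peaks in ADR glomeruli, 18 of 31 in PBS glomeruli, 20 of 40 at day 9, 0 of 3 at day 14 and 12 of 18 in PBS podocytes. The best rank of any peak of the interval was 547 in ADR glomeruli, 1347 in PBS glomeruli, 1645 at day 9, 3562 at day 14 and 5818 in PBS podocytes. In the top 10% of their list by fold enrichment stood 6 peaks in ADR glomeruli and 1 in PBS glomeruli, and 2 at day 9, 0 at day 14 and 0 in PBS podocytes. Ranked by caller p-value, PBS podocytes did have such a peak, at percentile 91.2. Further ones then stood at 90.7 in PBS glomeruli and at 92.2 and 91.9 at day 9. Peaks had a median width of 329 bp in ADR glomeruli and 387 bp in PBS glomeruli, and of 423, 343 and 484.5 bp in day 9, day 14 and PBS podocytes, against 303, 334, 450, 387 and 472 bp over the whole lists.

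The 125 peaks merged into 46 sites, unions of peaks that overlap by at least 1 bp, each named here by the median position of its summits in Mb. The sites covered 22.6 kb, or 6.65% of the interval, with a median of 4.26 kb from one summit to the next and a widest gap of 27.5 kb. Of the 46 sites, 33 (71.7%) had a peak in at least 1 glomerular and at least 1 podocyte list, against 56.9% of the 41770 sites of the genome. A peak in a single list was found at 11 sites (23.9%), against 34.5% of all. Summits of the same site lay close together, with a median distance of 20.5 bp between ADR and PBS glomeruli over 22 sites and of 20 bp between day 9 and PBS podocytes over 18 sites.

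**Figure D2:**
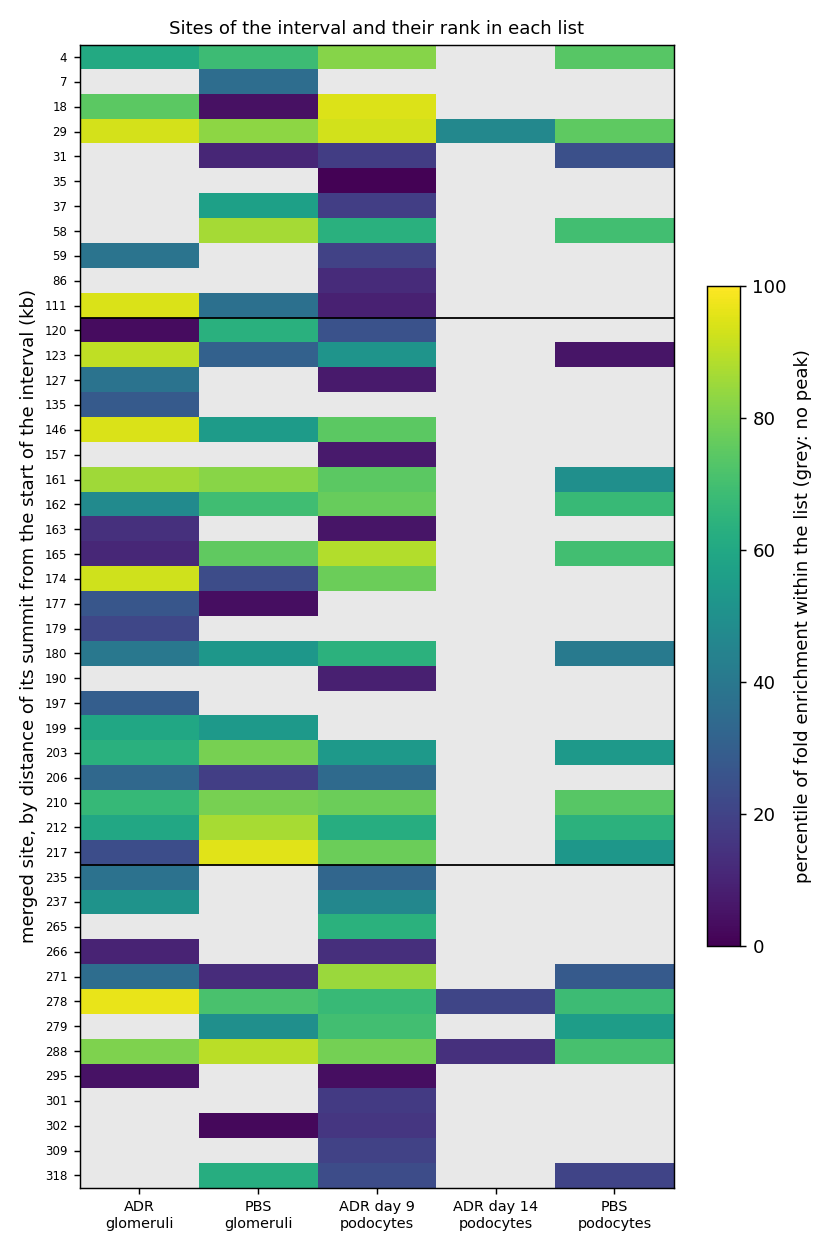
Each row is 1 of the 46 sites, labelled by its distance in kb from the start of the interval, and each column is a group. Colour gives the percentile of the site's fold enrichment within that list, grey means no peak, and black lines bound the 100 kb window. The day 14 column has 3 coloured cells, none inside the window, in rows coloured in all 5 columns. A further 11 rows are grey at day 14 and coloured in all of the other 4 columns.

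Beside Cebpb, which the rule places at about 167.51 Mb, the leading site was that at 167.509 Mb (167508955 to 167509632). It had a peak in all 5 lists, as 3 (6.52%) of the 46 sites did, against 11.2% of all sites. Its enrichment was 18.4-fold in ADR glomeruli and 14-fold in PBS glomeruli, at percentiles 93.5 and 83.2 of those lists. In podocytes it was 26.6-fold at day 9, 6.08-fold at day 14 and 10.2-fold with PBS, at percentiles 93.2, 46.8 and 75.1. By fold enrichment this was the first peak of the interval both at day 14 and in PBS podocytes, while by caller p-value the 167.758 Mb peak led in both, at percentile 73.5 against 60.2 at day 14 and 91.2 against 78.9 with PBS. In PBS podocytes the peak at 167.484 Mb (9.78-fold, percentile 73.8) followed that at 167.690 Mb by fold enrichment, and preceded it by caller p-value. Sites of lower fold enrichment followed to the right. That at 167.511 Mb had a peak in PBS glomeruli, day 9 and PBS podocytes (percentiles 10.8, 18.2 and 24.5), and that at 167.515 Mb had a peak at day 9 only, at percentile 0.573.

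A site to the left of Cebpb differed more between the lists. The site at 167.498 Mb (167497598 to 167498280) had the highest fold enrichment of the interval at day 9, 30.5-fold at percentile 94.9 (95.5 by caller p-value, where the 167.509 Mb site led at 95.9), and had no peak at day 14 or in PBS podocytes. In ADR glomeruli it had 10.3-fold enrichment at percentile 74.8, and in PBS glomeruli 3.95-fold at percentile 4.33. Strong at day 9 and weak or absent in both PBS lists, it stood close to the 167.509 Mb site, which was present throughout.

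Around Ptpn1, placed at about 167.76 Mb, the leading sites were those at 167.758 and 167.768 Mb, which had a peak in every list. The site at 167.758 Mb (167756963 to 167758167) had the highest fold enrichment of the interval in ADR glomeruli, 22.5-fold at percentile 96.7 (96.6 by caller p-value, where the 167.509 Mb site led at 96.8), against 10.7-fold at percentile 71.1 in PBS glomeruli. In podocytes it had 9.6-fold enrichment at day 9, 4.66-fold at day 14 and 8.70-fold with PBS, at percentiles 67.4, 21.05 and 68.5. It was also a wide site of 1205 bp. The site at 167.768 Mb (167767673 to 167768694) had percentiles of 80.7 in ADR and 89.8 in PBS glomeruli, and of 79.0, 14.1 and 70.9 at day 9, day 14 and in PBS podocytes. The site at 167.751 Mb (167750376 to 167751138), in all lists but day 14, stood at percentile 84.9 at day 9 against 28.4 in PBS podocytes, and at 35.9 in ADR against 12.6 in PBS glomeruli.

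In the 100 kb window between the genes, 22 sites were found, and 9 of them had a peak in 4 lists with day 14 missing. Over the interval 11 sites (23.9%) had this pattern, against 13.7% of all sites, and the missing day 14 peak is part of how the interval was chosen. The first of these 9 by fold enrichment differed between the lists. At day 9 it was the site at 167.645 Mb (167644612 to 167645349), with 19.7-fold enrichment at percentile 88.5, and in PBS podocytes that at 167.690 Mb (9.81-fold, percentile 73.9). In ADR glomeruli it was the site at 167.603 Mb (15.8-fold, percentile 90.3), and in PBS glomeruli that at 167.697 Mb (21.6-fold, percentile 95.4), followed there by that at 167.692 Mb (15.5-fold, percentile 86.8). The strongest site of the window in ADR glomeruli lay outside this class, at 167.626 Mb (167626062 to 167626518), with 19.2-fold enrichment at percentile 94.5. It had 8.03-fold enrichment in PBS glomeruli and 11.51-fold at day 9, and no peak at day 14 or in PBS podocytes. Just left of the window, the site at 167.591 Mb had 18.9-fold enrichment in ADR glomeruli (percentile 94.1) and 6.31-fold in PBS glomeruli (percentile 37.0), and at day 9 it stood at percentile 9.35 by fold and 64.7 by caller p-value.

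ADR and PBS glomeruli were compared to ask how binding differed in the injured glomerulus. Of the 33 ADR peaks of the interval, 10 (30.3%) had no overlapping PBS peak, beside 17.4% of all ADR peaks, and 23 had one (69.7%, 95% Wilson interval 52.7 to 82.6, which covers counting error of peaks only). Of the 31 PBS peaks, 24 had an ADR peak (77.4%, 60.2 to 88.6) beside 46.5% of all PBS peaks. With both lists limited to a −log10 q of 10 or more, 2 of 14 ADR peaks of the interval had no PBS peak (14.3%, beside 15.4% of all), and 12 of 21 PBS peaks had an ADR peak (57.1%, beside 36.6%). The 10 ranged from percentile 5.02 to 51.4 of the ADR list, with a median of 29.2, beside 28.9 for all ADR peaks without a PBS peak. As sites, they were 21.7% of the 46, beside 6.63% of all sites, and 3 of them (6.52%, beside 3.37%), all in the window, had a peak in no other list. Because the interval was chosen for its many ADR glomerular peaks, all these shares follow in part from that choice and were not tested.

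The order of the shared glomerular sites differed between ADR and PBS. Both lists had a peak at 22 sites (47.8%, beside 31.7% of all), and each was ranked among the 13232 regions of the genome that the 2 lists share. Both ranks thus count the same regions, though which regions are shared still depends on the length and cutoff of each list. At least 30 percentile points higher in ADR glomeruli were 6 of the 22 sites, beside 13.5% of all shared regions, and at least 30 points lower were 3 of 22, beside 14.2%. The 6 were the sites at 167.498, 167.591, 167.603, 167.626, 167.654 and 167.758 Mb. The largest such difference was at 167.654 Mb (167653668 to 167654209), at percentile 91.0 in ADR and 15.0 in PBS glomeruli. The 3 that stood lower were at 167.600, 167.645 and 167.697 Mb. By fold enrichment the site at 167.697 Mb (167696874 to 167697508) ranked 20 of the 22 in ADR glomeruli and 1 of 22 in PBS glomeruli. Its low ADR place depended on the measure, at percentile 23.5 of the whole ADR list by fold and 50.7 by caller p-value. Sites of opposite kind were neighbours, as at 167.603 and 167.600 Mb and at 167.654 and 167.645 Mb. Ranked by caller p-value, 5 of the 6 higher sites and all 3 lower ones still differed by 30 points, and the 167.758 Mb site did not, at 22.3 points. By that measure 6 of the 22 stood higher, with the 167.657 Mb site added, beside 10.7% of all shared regions. Lower by it were 4, with the 167.642 Mb site added, beside 11.9%.

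**Figure D3:**
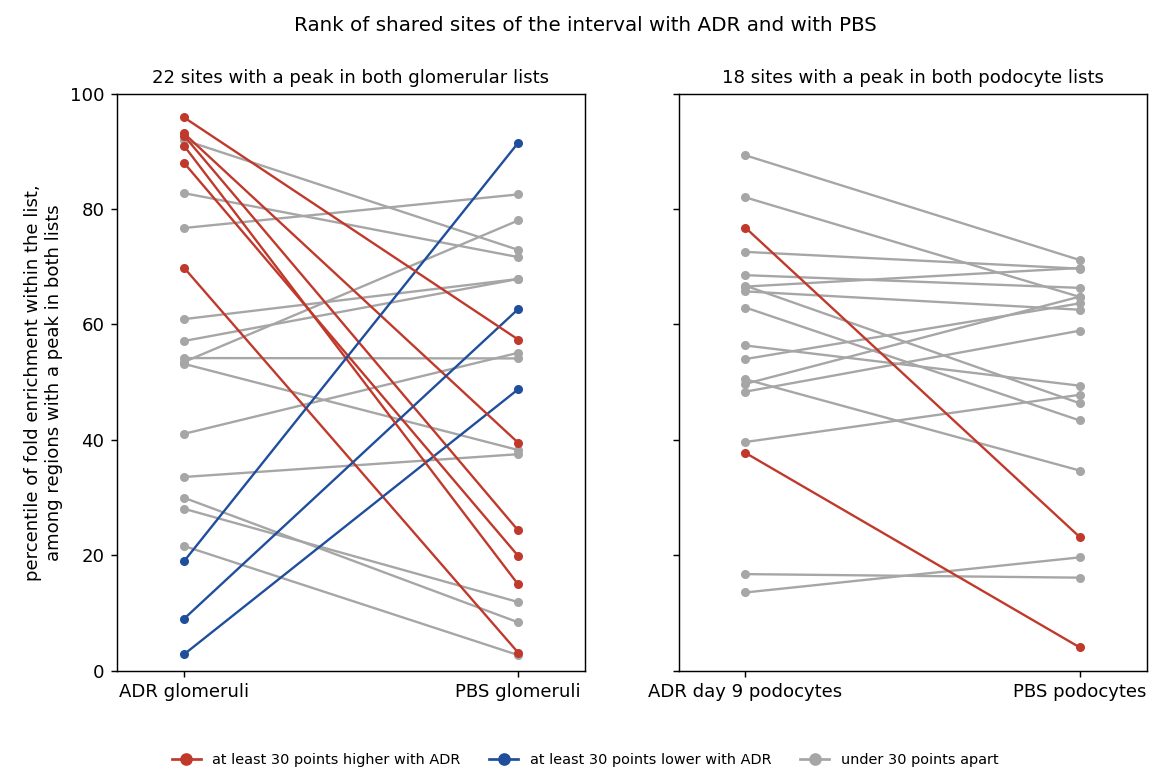
Each line joins the percentile of a shared site of the interval in 2 lists, ADR on the left and PBS on the right of each panel, on an axis from 0 to 100 counted among all regions shared by those lists. Red and blue lines mark sites at least 30 points higher or lower with ADR. In glomeruli 6 lines are red and 3 blue among 22, and in podocytes 2 are red and none is blue among 18.

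Day 9 podocytes had a peak at every PBS podocyte site of the interval and at more than as many sites again. All 18 PBS peaks had a day 9 peak (100%, 82.4 to 100), beside 87% of all PBS podocyte peaks. Of the 40 day 9 peaks, 22 (55%) had no PBS peak, beside 36% of all day 9 peaks, and as sites these were 47.8% of the 46, beside 27.4% of all. A PBS podocyte peak without a day 9 peak was found at 0 sites, beside 7.17% of all. These 22 had a median percentile of 17.8 in the day 9 list, against 72.2 for the 18 with a PBS peak, beside 33.6 and 63.4 for all day 9 peaks without and with a PBS peak. The exceptions among the 22 were strong, led by the sites at 167.498 Mb (30.5-fold), 167.654 Mb (12.5-fold) and 167.626 Mb (11.51-fold). With the stricter q, 15 of 32 day 9 peaks had no PBS peak (46.9%, beside 35.05% of all).

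The shared podocyte sites were ranked in the same way. Of the 18 sites with a day 9 and a PBS podocyte peak, 2 were at least 30 points higher at day 9, beside 5.9% of all 20043 shared regions, and 0 were lower, beside 4.09%. The 2 were at 167.751 Mb, at percentile 76.8 at day 9 and 23.2 with PBS, and at 167.603 Mb, at 37.8 and 4.05. The site at 167.603 Mb was also among those higher in ADR glomeruli. The sites at 167.645 and 167.697 Mb, which stood lower in ADR than in PBS glomeruli, differed in podocytes by 17.2 and 20.4 points with day 9 the higher.

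Sites of the injured glomeruli were compared with those of the injured podocytes. Of the 22 day 9 sites without a PBS podocyte peak, 13 (59.1%) had a peak in ADR glomeruli, beside 17.3% of all such sites, and 8 (36.4%) in PBS glomeruli, beside 33.1%. Of the 13, 6 also had a PBS glomerular peak and 7 did not. The 7 of the 22 outside both counts (31.8%) had a peak in no further list, beside 58.8% of such sites, and were 15.2% of the 46 sites beside 16.1% of all. Taking peaks, 28 of 33 ADR glomerular peaks had a day 9 peak (84.8%, 69.1 to 93.3), beside 80.1% of all, and 27 of 40 day 9 peaks had an ADR glomerular peak (67.5%, 52.0 to 79.9), beside 40.5% of all. Of the 10 ADR glomerular sites without a PBS glomerular peak, 7 had a day 9 peak, beside 44.4% of all such sites, and 0 a PBS podocyte peak, beside 19.5%. The interval was chosen for its many ADR glomerular peaks, so these shares are descriptions. Present in ADR glomeruli and at day 9 and in neither PBS list were 7 of the 46 sites (15.2%), beside 1.96% of all sites. They lay at 167.539, 167.607, 167.643, 167.715, 167.717, 167.746 and 167.775 Mb, 5 of them outside the window. Their values were 4.31- to 7.36-fold enrichment in ADR glomeruli (percentiles 5.02 to 51.4) and 3.18- to 6.47-fold at day 9 (percentiles 3.74 to 46.2, and 9.02 to 69.4 by caller p-value). At the stricter q none of these 7 kept the pattern, and 2 other sites took it, at 167.498 and 167.654 Mb, whose PBS glomerular peaks did not reach that q. These were 2 of the 33 sites of the interval at that q, beside 1.41% of all 26508. The converse pattern, a peak in both PBS lists and no ADR list, was found at 0 of 46 sites, beside 1.92% of all.

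Purified podocytes with PBS had 18 peaks in the interval, against 31 in PBS glomeruli, a ratio of 0.581 beside 0.805 for the whole lists. Among peaks whose −log10 q was 10 or more the counts were 17 against 21, and at equal list length 10 against 11. All 18 had a PBS glomerular peak, beside 80.7% of all PBS podocyte peaks, and 18 of the 31 glomerular peaks had a podocyte peak (58.1%, 40.8 to 73.6), beside 66.4% of all. Of the sites, 6 (13.04%) had peaks in glomerular lists alone, beside 17.4% of all sites, and 5 of these lay in the window, between 167.615 and 167.679 Mb.

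Day 14 podocytes kept 3 sites of the interval, those at 167.509, 167.758 and 167.768 Mb. Their percentiles in the day 14 list were 46.8, 21.05 and 14.1 by fold enrichment and 60.2, 73.5 and 29.5 by caller p-value, so that 2 of the 3 stood above the list's median by p and none by fold. Each had a peak at day 9 and with PBS, as 99.7% and 96.1% of all day 14 peaks did. Conversely, 3 of the 40 day 9 peaks had a day 14 peak (7.5%, 2.58 to 19.9), beside 20.5% of all day 9 peaks, and 3 of the 18 PBS podocyte peaks (16.7%, 5.84 to 39.2), beside 27%. The interval was chosen for a window without a day 14 peak, so these low shares follow in part from that choice and were not tested.

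The share of day 9 peaks that had a day 14 peak differed with day 9 enrichment, and the place of the window's peaks on that scale depended on the measure. Ranked by fold enrichment, 10 of its 17 day 9 peaks fell in the 7 lower deciles of day 9 enrichment, where at most 14.7% of all day 9 peaks had a day 14 peak. Another 6 fell in decile 8, where 30% had one, and 1, the 167.645 Mb site, in decile 9, where 58.2% had one. Ranked by caller p-value, 7 of the 17 fell in the 7 lower deciles, 4 in decile 8, 4 in decile 9, where 62.5% of all day 9 peaks had a day 14 peak, and 2 in decile 10, where 95.4% had one. In the interval outside the window, the 167.498 Mb site fell in the strongest decile by fold enrichment, where 92.1% of day 9 peaks had a day 14 peak, and had none. Of the 377 windows of 100 kb with at least 10 day 9 peaks, 25 had no day 14 peak (6.63%). Of the 33 with at least 17, the present window's own count, the present window was the single such one, and the median of these 33 was 5 day 14 peaks. The zero itself was part of the choice of the interval.

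**Figure D4:**
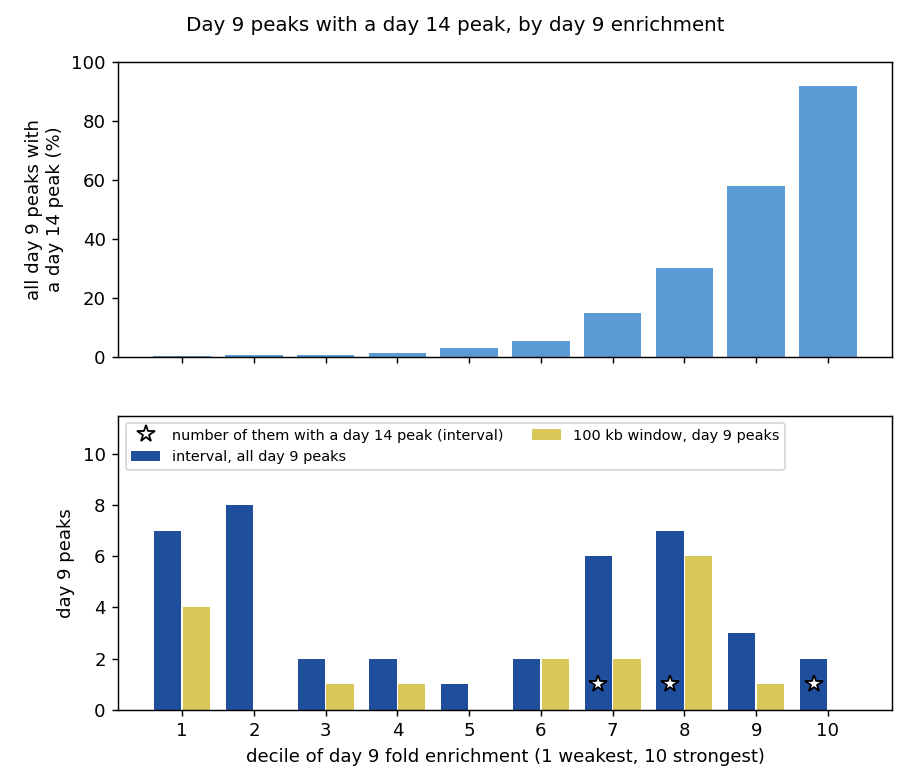
The upper bars give, for each decile of day 9 fold enrichment, the percentage of all day 9 peaks that overlap a day 14 peak, and the lower bars count the day 9 peaks of the interval and of the 100 kb window in each decile. Stars mark how many of the interval's peaks had a day 14 peak. The share climbs to 92.1% in decile 10, while by fold enrichment the window has 10 of its 17 peaks in the 7 lower deciles (7 of 17 when ranked by caller p-value, not plotted), and the interval has 1 peak with a day 14 match in each of deciles 7, 8 and 10.

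The 100 kb windows whose 5 peak counts were nearest to those of the window, by Euclidean distance, lay on other chromosomes. The nearest was at 63500001 to 63600000 on chromosome 9, with 15 peaks in ADR and 17 in PBS glomeruli, and 18 at day 9, 3 at day 14 and 11 in PBS podocytes, a distance of 6.32. The next, at 94900001 to 95000000 on chromosome 11, had 13, 13, 14, 2 and 9 in the same order, and all 5 of the nearest windows had 2 to 4 day 14 peaks. The present window was chosen for having no day 14 peak, so that contrast follows from the choice.

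The peaks just inside and just outside the edges of the interval were also placed. Wide stretches without a peak lay inside it too, as between the summits at 167539171 and 167590911 in ADR glomeruli. On the left, the first peak inside had its summit at 167484392 in ADR glomeruli (percentile 60.6), and the last outside at 167460078 (68.2). In PBS glomeruli these were at 167484442 (68.4) and 167460053 (49.5). On the right, the last inside was at 167775000 in ADR glomeruli (percentile 5.02) and at 167797824 in PBS glomeruli (62.1), and the first outside at 167889321 (19.2) and 167829093 (52.4). The podocyte peaks just inside on the left were at percentile 82.0 at day 9, 46.8 at day 14 and 73.8 with PBS, and those just outside at 65.5, 37.1 and 70.7. On the right these were 23.2, 14.1 and 20.3 inside and 28.9, 13.5 and 69.7 outside.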

How the data were processed

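WT1 was measured by ChIP-seq in 15 immunoprecipitations of 5 groups, taken from the sample titles, with the antibody sc-192. Bowtie 0.12.7, MACS2 and the build mm9 are named in the submitters' processing notes, without roles. The sources used here do not give the control, the cutoff or how libraries of a group were combined. A single narrowPeak list per group was deposited. Fold enrichment (a ratio over local background), −log10 p and −log10 q are the authors' deposited values, and the deposited integer score entered no result. Read totals were not used here, so depth behind each peak is unknown.

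Summits, the start plus the authors' deposited summit offset, placed peaks in the interval, and positions are printed 1-based. Peaks overlapping by at least 1 bp were called shared and merged into sites. Percentiles run from weakest to strongest. Shares have 95% Wilson intervals. Sites, lists and thresholds were chosen with earlier results of these data known, and ranking among shared regions, ranking by caller p, and the alternatives for the window and for site classes were added after the data were seen. Named were the 3 strongest peaks of each list, sites in all lists or with ADR alone in both models, and edge peaks; other sites were chosen after their values were seen. Gene order and promoters came from RefSeq tables of GRCm38.p6, whose positions were not set beside those of the peaks. Overlap counting was tested on simulated peaks with known matches. Alternatives were another overlap rule, a limit of 200 bp between summits, only peaks whose −log10 q reaches 10, lists of equal length and assignment by any base. Computation used pandas 2.3.3 with numpy 2.4.6 under Python 3.11.15, and figures matplotlib 3.10.9.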

Additional observations from a re-analysis of the deposited data

Results flagged for a closer look

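The number of peaks in the interval after ADR stood on opposite sides of that in PBS podocytes at the 2 times, at 2.22 times the PBS count at day 9 and 0.167 times at day 14. The whole lists stood on the same sides, at 1.37 and 0.286 times the PBS list, and at equal list length the interval held 12 peaks at day 9, 3 at day 14 and 10 with PBS. The low day 14 count is part of how the interval was chosen. With 1 list per group this difference was not tested, and both ratios share the PBS list.

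Of 14 sites shared in both models, 6 had percentile differences of opposite sign in glomeruli and podocytes, and 3 of these differed by at least 30 points in glomeruli. The share of opposite signs over all regions of the genome was not computed, so whether 6 of 14 is unusual is not known. The site at 167.645 Mb stood 53.7 points lower in ADR than in PBS glomeruli (-53.7) and 17.2 points higher at day 9 than in PBS podocytes. The site at 167.697 Mb had differences of -72.5 in glomeruli and 20.4 in podocytes, and of -49.6 and 13.1 when ranked by caller p-value. The site at 167.758 Mb beside Ptpn1 had differences of 38.5 in glomeruli and -9.64 in podocytes, and was under 30 points in glomeruli when ranked by caller p-value. Each podocyte difference was under 30 points, and none of these differences was tested.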

How the results depend on the processing

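No paired analysis was possible because the libraries of a group share 1 list of peaks. Leaving out a replicate could not be done either. Of 88 alternative values for 37 results, 71 stayed within 1.5 times the count or within the 95% interval of the share or median. Keeping only peaks with a −log10 q of 10 or more left 14 ADR glomerular peaks in the interval and 8 in the window, with a median of 12.6-fold in the interval. At that q, 85.7% of ADR glomerular peaks had a PBS peak, beside 84.6% of all. Of PBS glomerular peaks 57.1% had an ADR peak, beside 36.6%, and of day 9 peaks 40.6% had an ADR glomerular peak, beside 28.1%. Of the 33 sites at that q, 2 were in ADR glomeruli and at day 9 without a PBS list, beside 1.41% of all 26508 sites. In all lists but day 14 were 6, beside 9.42%, and in ADR without PBS glomeruli 2, beside 4.04%. Lists of equal length gave 12 and 11 peaks in ADR and PBS glomeruli and 12 and 10 at day 9 and in PBS podocytes, and 7, 6, 6 and 5 in the window. Both settings keep fewer peaks by construction. The other overlap rule, summit distance and assignment by any base moved no result out of these limits. Gene position and WT1 motif of peaks were not run for want of an mm9 genome. Depth is unknown, so an absent peak means only that the site is not in that list at the authors' cutoff.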
